A study of Drosophila melanogaster with 4 samples.

Results

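The dpp region of Drosophila melanogaster was examined in a ChIP-seq experiment on TCF, the protein of the gene pangolin (pan), in whole embryos of 0 to 8 h. The region was taken as the stretch of chromosome arm 2L from 2420000 to 2490000 on FlyBase release 5, which holds the dpp gene and flanking control sequence, and a peak belonged to it if its midpoint lay inside. It held 13 of the 4589 deposited TCF peaks, and 13 of the 967 on 2L. The peaks came from 1 list for the whole series, which comprised 2 ChIP libraries made with a crude polyclonal rabbit antibody against the TCF N-terminus and 2 input libraries. All libraries came from 1 strain, called Y cn bw sp, with sex not known. It carried y[1] and oc[R3.2] first. Its next group of alleles was Gr22b[1] and Gr22d[1], then cn[1] with CG33964[R4.2], and also bw[1] and sp[1]. A further group was LysC[1] and lab[R4.2], plus MstProx[1], GstD5[1] and Rh6[1]. The embryos were used whole, so cells in which TCF binds a site and cells in which it does not were mixed, and binding in few cells and weak binding in many cannot be told apart. The collection text in the labels names older embryos than the stage label, so the age of the embryos is uncertain. The stage label is followed here.

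The gene dpp (decapentaplegic) encodes a secreted ligand of the BMP family. It patterns the dorsal side of the early embryo, and it is later made in the visceral mesoderm of the midgut, where its expression depends on Hox proteins and on Wingless signalling. TCF is the DNA-binding end of the Wingless pathway. It activates target genes together with Armadillo, the fly beta-catenin, and represses them together with the co-repressor Groucho when no signal arrives. Control sequences of dpp are known to be spread over a long stretch before, within and after the transcribed part of the gene. In the Release 6 gene table, dpp is 31.5 kb long and has 4 RefSeq transcripts, its neighbours being the non-coding RNA gene lncRNA:CR44912 on the side of lower coordinates and the transfer RNA gene tRNA:Tyr-GTA-1-2 on the other. That table and the peak list are on different releases, so no peak is placed here in an exon, intron, UTR or promoter, and that the region holds dpp was taken from the rule that chose it.

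TCF peaks in the dpp region formed 1 row of 11 peaks, with the highest peak at one end and the second highest at the other, and a separate pair of low peaks farther along the arm. From low to high coordinates the peaks are numbered 1 to 13. Peaks 1 to 11 ran from 2438488 to 2462717, over 24.2 kb, and peaks 12 and 13 lay at 2484522 to 2484733 and 2485803 to 2486213, after a gap of 21.8 kb without a peak. The first 18.5 kb of the region held none.

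**Figure D1:**
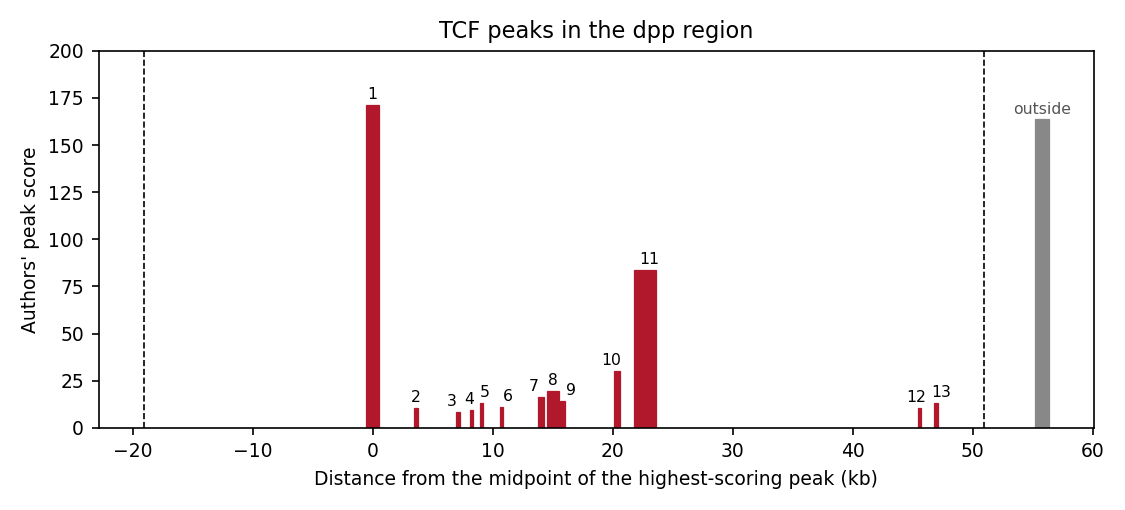
Authors' score of each TCF peak (vertical axis, from 0) against distance in kb from the midpoint of peak 1 (horizontal axis). Red bars are the 13 peaks of the dpp region with their widths to scale, the grey bar is the next peak beyond it, and dashed lines mark the limits of the region. Peaks 1 and 11 stand at 171.21 and 83.87, and the remaining red bars are at 30.35 or lower.

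The 2 highest peaks stood apart from the others in the region. Peak 1, at 2438488 to 2439632, had a score of 171.21, the authors' value for the strength of the peak, and was 1145 bp wide. It ranked 176 in the whole list and 47 on 2L. Peak 11, at 2460835 to 2462717, had a score of 83.87 and was 1883 bp wide, and it ranked 425 in the list and 107 on 2L. The midpoints of these 2 peaks were 22.7 kb apart, and together they made up 41.1% of the 7365 bp covered by peaks in the region.

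The scores of all 13 peaks fell on the steps of -log10 of a Poisson tail with an expected pileup of 71.7 reads, fitted on the whole list. The pileup is the number of overlapping reads that the caller scored at a place. Each score therefore implied a fold over that single expectation, not over the input at the place itself. Peak 1 had an implied fold of 5.83 (95% exact Poisson interval 5.28 to 6.41). Peak 11 had an implied fold of 4.07 (3.62 to 4.57). The 2 intervals do not overlap, and counting error is the only error they cover. The 2 peaks were picked as the highest by the same scores that gave the intervals. The lack of overlap is thus a description and not a test between them. No value per library was at hand, so the spread between replicates is unknown and no test between libraries was made.

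The third highest was peak 10, next to peak 11, at 2459194 to 2459670. It had a score of 30.35 and an implied fold of 2.65 (2.29 to 3.05). A gap of 1164 bp separated it from peak 11. Peaks 10 and 11 thus formed the right end of the row, after a gap of 4095 bp, the longest inside the row.

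The other 10 peaks were low, and their counting intervals overlapped one another. Their scores ran from 8.35 to 19.73, their implied folds from 1.76 to 2.27 and their widths from 212 to 1008 bp. In none of the 45 pairs that they form did the 95% counting intervals lie apart. This follows from the selection, since the 3 highest were set aside and each interval depends on the score alone. The interval of peak 3, the lowest, reached up to 2.09, and that of peak 8, the highest of the 10, began at 1.94. Overlap of intervals does not show that 2 peaks are equal, and no test between peaks was made. The interval of peak 10 lay above those of 5 of the 10. Over all 13 peaks, intervals lay apart in 28 of 78 pairs. The share of such pairs over the whole list was not computed, so these counts do not set the region apart from other peaks.

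**Figure D2:**
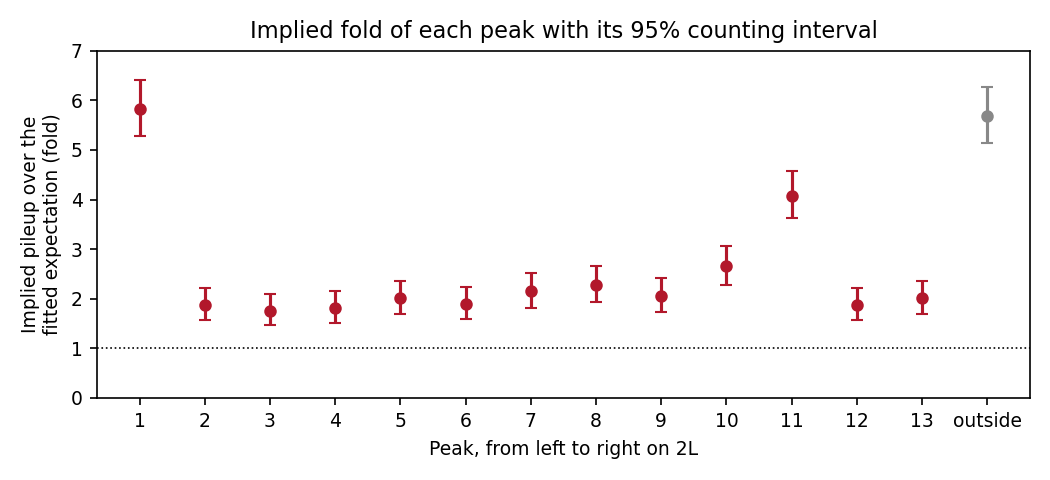
Implied pileup over the fitted expectation (vertical axis, fold) for peaks 1 to 13 and the next peak beyond the region (horizontal axis), with 95% exact Poisson intervals as bars. The dotted line is a fold of 1. Peak 1 at 5.83 and peak 11 at 4.07 lie above the rest, and the low peaks overlap one another.

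Between peaks 1 and 11, 9 peaks lay in 21.2 kb, with a median score of 13.38 and a median width of 316 bp. On the left, peak 2 at 2442527 to 2442806 had a score of 10.46. Peaks 3, 4 and 5 followed close together, at 2446037 to 2446315, 2447206 to 2447437 and 2447971 to 2448286, with scores of 8.35, 9.38 and 13.38. Peak 3 had the lowest score of the region, and 5.56% of the list scored lower, but its counting interval overlapped those of the other low peaks. Peak 6, at 2449710 to 2449932, had a score of 11.02.

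In the middle, peaks 7, 8 and 9 were nearly continuous. They lay at 2452829 to 2453325, 2453581 to 2454588 and 2454697 to 2455098, with scores of 16.60, 19.73 and 14.32. Only 255 and 108 bp separated them, so that peaks covered 84.0% of a stretch of 2270 bp. Of the gaps between neighbouring peaks on the 6 chromosome arms, 11.8% were shorter than 255 bp and 4.76% shorter than 108 bp. The gap of 108 bp was named because it was the shortest in the region, and the shortest of any such set would lie toward the low end. The pair to the right of the row, peaks 12 and 13, had scores of 10.46 and 13.38 with 1069 bp between them, the same 2 scores as peaks 2 and 5.

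In score and width the peaks of the region were set beside those of the whole list. Of its 13 peaks, 2 (15.4%) were among those at or above the 75th percentile of scores, which is 33.38, against 25.3% of the whole list and 26.4% of the peaks on 2L outside the region. The median score was 13.38 in the region and 16.26 on the rest of 2L. The median width was 402 bp in the region and 531 bp on the rest of 2L. An implied fold under 2 was found for 5 of the 13 peaks (38.5%), a share close to the 38.8% of the 4345 peaks of the list with an implied fold. In score, 8 of the 13 were below the median of the list, and in width 10 were narrower than its median of 500 bp. With so few peaks these are descriptions of the list, and no test was made, since neighbouring peaks are not replicates.

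The width of each of the 13 peaks was set beside peaks of the list with a like score. The peaks farthest from the middle are named here. No cutoff was set, and some of any 13 peaks would lie that far out. Peak 11 was wider than 84.6% of the 91 peaks with a score within 10% of its own, whose median width was 1173 bp. Peak 8, at 1008 bp, was wider than 85.6% of the 382 peaks of like score, with a median of 589.5 bp. Peaks 6, 10 and 12 lay on the narrow side. Peak 12, at 212 bp, was wider than 11.4% of 622 peaks of like score, with a median of 292 bp. Peak 6, at 223 bp, was wider than 12.6% of 619 such peaks, with a median of 316 bp. Peak 10, at 477 bp, was wider than 13.7% of 219 such peaks, with a median of 756 bp. The highest, peak 1, lay near the middle of its class, being wider than 36.6% of 41 such peaks.

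**Figure D3:**
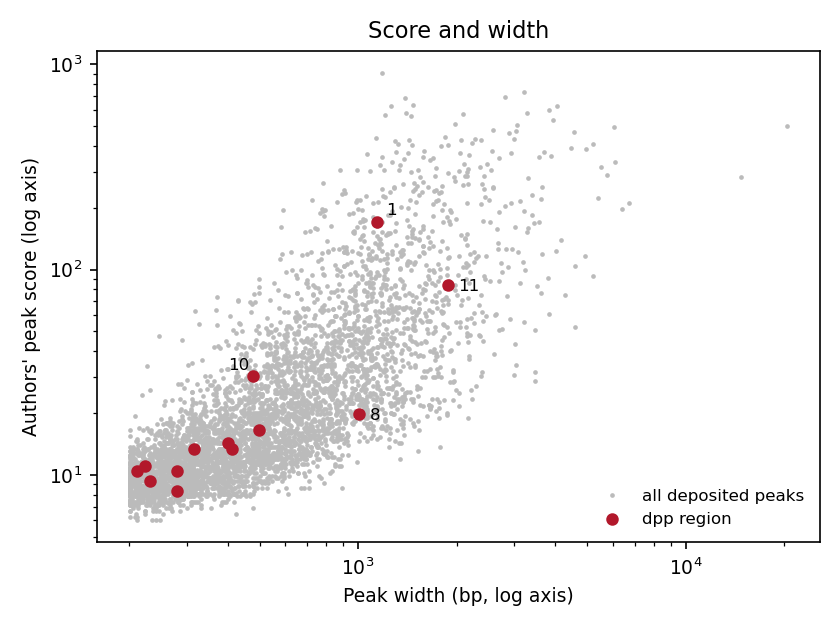
Authors' score (vertical log axis) against peak width in bp (horizontal log axis) for all 4589 deposited peaks in grey and the 13 of the dpp region in red. Peaks 8 and 11 lie toward the wide side for their scores and peaks 6, 10 and 12 toward the narrow side, of which 6 and 12 are among the unnumbered red points at the lower left.

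The peaks of the dpp region lay in an otherwise nearly empty part of 2L. The nearest peak to the left, at 2216819 to 2217022, had a score of 7.14, and the stretch from it to peak 1 measured 221.5 kb without a peak. Counting this gap, 66 of the 4538 gaps between neighbouring peaks on the arms, and 8 on 2L, were at least as long. To the right, the next peak lay 8.05 kb beyond peak 13 at 2494259 to 2495404, its midpoint 4.83 kb past the limit of the region. It had a score of 163.60 and an implied fold of 5.69 (5.15 to 6.27), an interval that overlaps that of peak 1. After it came 111.3 kb without a peak.

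In the 389.7 kb between the peaks that bound these long gaps, there were thus 14 peaks, 13 of them in the dpp region. That is 35.9 peaks per Mb, against 42.1 per Mb on 2L outside the region. Within the region itself the density was 185.7 per Mb, or 4.41 times that of the rest of 2L, from a count of 13 (95% exact Poisson interval 6.92 to 22.2, which treats grouped peaks as independent). Peaks covered 10.5% of the region and 3.22% of the rest of 2L.

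**Figure D4:**
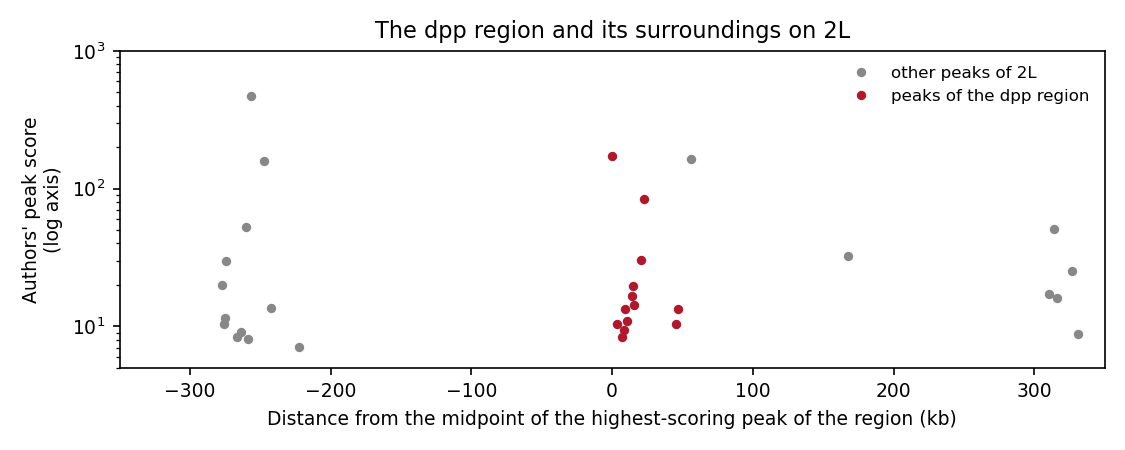
Authors' score (vertical log axis) of each peak on 2L against distance in kb from the midpoint of peak 1 (horizontal axis), with the 13 peaks of the dpp region in red and others in grey. The red points stand between stretches of 221.5 kb and 111.3 kb without a peak, with 1 grey point of score 163.60 beside them.

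Among 1689 other windows of 70 kb on the arms 2L, 2R, 3L, 3R, 4 and X, 97.9% held fewer than 13 peaks, 6 held as many and 30 held more. The region was placed around a gene and holds its row of peaks whole. The windows lay on a fixed grid that can divide a row, so the comparison is not an even one. The median window held 2 peaks, 550 held none and the fullest held 29. By share of length covered, 1605 of the 1689 windows lay below the dpp region. By best score, 85.9% of the 1139 windows that held a peak lay below. The 22 windows with 12 to 14 peaks, those most like the region in number, had a median coverage of 12.4% and a median best score of 69.1. Of these, 22.7% had a lower coverage than the dpp region, and 81.8% had a lower best score.

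**Figure D5:**
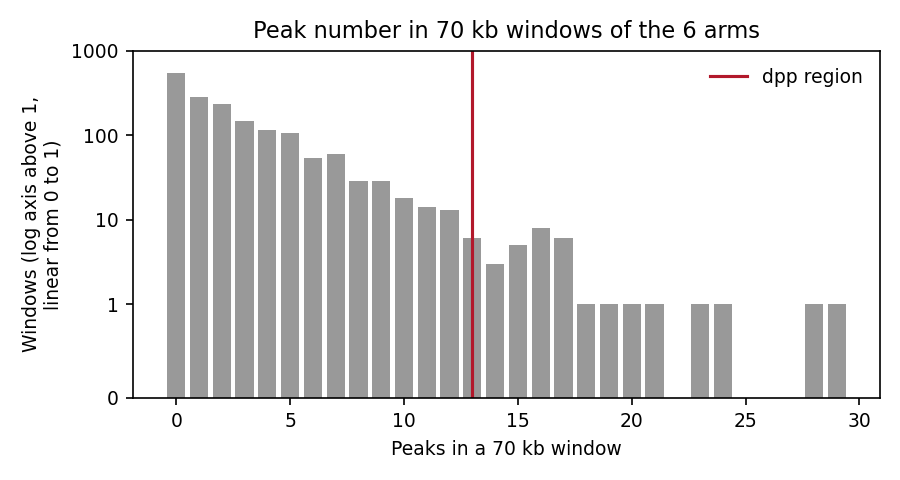
Number of windows (vertical axis, log above 1 and linear from 0 to 1) by the number of peaks in a 70 kb window (horizontal axis) over 1689 windows of the 6 chromosome arms. The red line marks the 13 peaks of the dpp region, and 30 windows lie to its right.

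The row of 11 peaks was compared with other rows, defined as runs of peaks with gaps of at most 5000 bp. On the arms, 158 rows had at least 5 peaks and 20 had at least 11, of which 4 lay on 2L. Within those 20, the dpp row was open: peaks covered 27.8% of its length, the second lowest share, in a range of 23.2 to 73.5%. Its best score ranked 11 of 20, in a range of 16.93 to 578.63. Its median score of 14.32 was the seventh lowest. Its best score was 11.96 times its median. Over the 20 rows, this one among them, the median of that ratio was 11.8, and 9 had a higher one. Over the 158 rows, most of them with fewer peaks, the median ratio was 4.78, and 40 had a higher one than the dpp row.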

How the data were processed

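TCF ChIP-seq peaks from 2 ChIP and 2 input libraries of whole embryos were analysed. Per the file headers, the authors deposited 1 peak list on FlyBase release 5, made with MACS, with a start, an end and 1 score per peak, which has no stated scale. The submitters' processing notes name MACS2 and BWA, the build BDGP5 and 2 versions of CASAVA, 1.7.0.2 and 1.7.0.3, with no role for any. How replicates were pooled and which threshold was set is not given in the sources used here. The depth of each library is unknown.

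The expected pileup was searched from 1 to 400 for the value at which the deposited score equals -log10 of a Poisson upper tail at a whole pileup, within 0.01. It was 71.7, at which 94.7% of scores matched, against 37.7% at the best distant value. The search was tried on simulated scores made from Poisson tails with a known expectation. That checks the search only, and not whether the deposited scores were made in this way. Windows of 70 kb ran from the first base of each arm to its last peak, and those touching the region were left out. All peaks of the region were named by coordinates. The region, the gene lists and the measures were chosen with earlier results of these data known, and the rows, long gaps and comparisons at like score after the values were seen. Of 27 listed genes of the BMP and Wingless pathways, 26 matched a symbol in the gene table on Release 6, and Race did not. Peaks were not assigned to them, and the planned motif search was not run, because no sequence was used here. Computation used SciPy 1.17.1 and NumPy 2.4.6 with pandas 2.3.3, under Python 3.11.15, and plots were drawn with matplotlib 3.10.9.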

Additional observations from a re-analysis of the deposited data

How the results depend on the processing

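Of 31 values under alternatives, 25 stayed close to the reported ones: counts, coverages, medians and the fold within 1.5 times, shares within the 95% exact binomial interval of the reported share. The 25 include the values of 1 alternative, any peak with a base in the region. It took in the same 13 peaks, so its values repeat the reported ones and add no evidence of stability. For a share of 13 peaks the binomial interval is wide. With only the 50% of the list that had the higher score, the region held 5 peaks, with a median score of 30.35 and a median width of 1008 bp, and 93.5% of windows held fewer. This follows from the selection by score, since 8 of the 13 peaks lie below the median. The share of windows with fewer peaks, 97.9% as reported, was 96.8% with the limits moved out by 10 kb and 98.6% with peaks closer than 1000 bp merged, where the region held 9 peaks. The cause of these shifts was not tested. With a tail that excludes the observed pileup, peak 1 had an implied fold of 5.81. No paired analysis was possible because each peak has 1 score for the whole series, which also means that leaving out a replicate could not be tried. The unknown depth limits what can be said of weak sites, and places without a peak cannot be read as unbound.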

Other observations

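The placing of the 2 highest peaks at the outer ends of the dpp row was looked for in other rows after it was seen here. Counting the dpp row, it was found in 15 of the 158 rows with at least 5 peaks (9.49%), and in 2 of the 20 rows with at least 11 peaks. The other of these 2 was on 3R at 11465372 to 11482845, where the best score was 138.54. Such a placing arises more easily in rows of few peaks, which make up most of the 158. The 9.49% is therefore not a like reference for a row of 11.

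The isolation of the dpp peaks was also described over the arms after it was seen. There were 312 stretches bounded on both sides by gaps of at least 100 kb without a peak. They held a median of 7 peaks over 101.6 kb, and 46 of them held a single peak. The stretch with the dpp peaks, from 2438488 to 2495404, held 14 peaks in 56.9 kb. As many or more peaks were found in 102 of the 312 stretches, counting this one, and of those 102 only this one was as short as 56.9 kb. The number and the length compared are this stretch's own values, so this describes the stretch and tests nothing.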
